A study of Homo sapiens with 6 samples.

Results

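Type IV collagen chains and the enzymes and chaperone that prepare collagen chains for secretion were followed in OVSAYO cells, an established line from an ovarian clear cell carcinoma. The set holds 10 genes, COL4A1, COL4A2, COL4A5, COL4A6, P4HA1, P4HA2, P3H1, P3H2, PLOD1 and SERPINH1. Members were all probes whose single gene symbol in the platform annotation was one of these names, which gave 16 of 48803 probes. Of these, 12 probes of 9 genes were kept, meaning that their detection score exceeded 0.95 on 3 or more of the 6 arrays, as were 21928 probes in all. The genes were chosen by their function and with the measured inhibitor-minus-control differences known, among them the lower COL4A2. The differences of the members between the groups are therefore given as a description, without a test.

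Cultures of 2 kinds were compared, with 3 arrays each. Control cultures were transfected with 66 nM of a hairpin inhibitor that has minimal similarity to human microRNAs (control replicates 1 to 3). The others received 44 nM of a hairpin inhibitor of miR-30a together with 22 nM of one of miR-30d (inhibitor replicates 1 to 3). All were grown in the same medium, transfected with the same lipid reagent, and harvested 48 hours later for total RNA. These agents follow the labels of the samples, since the description of the whole study calls them mimics used for knockdown. The labels call the samples of a group biological replicates without saying what separated them, so any spread quoted is that between these samples, which may be partly technical. Only 1 cell line was used, and the arrays do not measure the mature microRNAs, so the depth of miR-30 inhibition is not known from them.

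Collagen IV is the sheet-forming collagen of basement membranes. COL4A1 and COL4A2 chains wind into the trimer found in nearly all basement membranes, while COL4A5 joins COL4A6, or COL4A3 and COL4A4, in trimers of particular epithelia. In the endoplasmic reticulum, prolyl 4-hydroxylases stabilise the triple helix, prolyl 3-hydroxylases and lysyl hydroxylases modify further residues, and the chaperone SERPINH1 (HSP47) binds the folded helix. Ovarian clear cell carcinomas are known for stroma rich in basement membrane material.

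The microRNA that the larger share of the inhibitor mix was aimed at is shown with its seed, bases 2 to 8, in capitals, because pairing with the seed is how its targets are recognised. It is credited to RefSeq (GRCh38.p14, chr6:71403595-71403616, minus strand).
hsa-miR-30a-5p: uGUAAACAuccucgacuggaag
No 3′ UTR sequence of the members was used here, so whether any of them carries a site for this seed was not examined.

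COL4A1 and COL4A2 lie head to head, and in RefSeq only 126 bases separate their annotated starts. That interval is shown because both genes were lower with the inhibitor and are transcribed away from it. It spans chr13:110307158-110307283 (GRCh38.p14, plus strand). COL4A2 runs to the right of it and COL4A1 to the left on the opposite strand. Capitals mark the only CCAAT and the only GGGCGG in it, counted on both strands.
COL4A1-COL4A2 interval: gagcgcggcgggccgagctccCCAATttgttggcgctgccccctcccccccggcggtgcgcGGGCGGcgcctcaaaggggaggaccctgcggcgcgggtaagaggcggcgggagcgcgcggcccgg
COL4A5 and COL4A6 form a second such pair on the X chromosome, where 379 bases separate the COL4A5 start from the nearer of the COL4A6 starts.

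Promoter windows of 300 bases, from 250 before to 50 after a RefSeq start, were at hand for all 10 genes, 13 windows in all. Motifs were searched on both strands, and none of the searched motifs contains another. The windows of COL4A1 and COL4A2 overlap and hold the same CCAAT and the same GGGCGG of the interval. A COL4A6 window overlaps that of COL4A5, and the pair of SERPINH1 windows overlap each other. In all 3 genes have a pair of windows, so the member windows are not independent. CCAAT occurred in 7 of the 13 windows and in 34.6% of all 35116 windows. GGGCGG, a sequence bound by SP1-type factors, occurred in 7 of the 13 and in 45.0% of all windows. ACGTG, the core of hypoxia response elements, was present in 4 of the 13, those of P4HA1, P3H2 and SERPINH1, and in 21.4% of all windows. TATAAA was present in P4HA1 alone among the members and in 11.5% of all windows. The heat shock element, searched as the blocks TTC, GAA and TTC with 2 bases between neighbours, was found in SERPINH1 alone among the members and in 0.490% of all windows. It is shown with its fixed bases in capitals (chr11:75562169-75562197, GRCh38.p14, plus strand).
SERPINH1 heat shock element: ttccaactTTCcaGAAgtTTCtcgggacg
The GC content of the members' windows ran from 43.7% in a COL4A6 window to 77.7% in that of COL4A2, and the median of all windows was 58.7%. A match describes the letters only and shows no binding.

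The arrays were alike in the share of probes detected, between 43.4% and 45.2% on each. Mean raw signals were 222.6, 239.9 and 237.2 on control replicates 1, 2 and 3. On inhibitor replicates 1, 2 and 3 they were 258.5, 240.3 and 257.8, all above the controls, though narrowly for inhibitor replicate 2. Quantile normalization removes such a difference, and its cause was not tested. Of the epithelial and clear cell markers, 7 of 8 were measured, among them EPCAM, KRT8 and PAX8, with a summed level of 23237 to 25950 on control arrays and 23880 to 26959 on inhibitor arrays. Fibroblast markers were at background for 6 of 8, including COL1A1, COL1A2 and COL3A1, and their summed level overlapped between the groups, at 62.0 to 71.9 and 63.8 to 78.2. Of 7 leukocyte markers 3 were measured, with 402.6 to 499.4 on control and 406.4 to 435.0 on inhibitor arrays, and PTPRC was not. Of 6 endothelial markers 2 were measured, PECAM1 and TEK, and VWF, CDH5, KDR and EMCN were not. Their summed level was 51.5 to 56.6 on control and 45.6 to 50.4 on inhibitor arrays, without overlap, and PECAM1 had a log2 difference of −0.32 ± 0.09 (SE, limma adjusted p 0.44). Both probes were near background, with mean log2 values for PECAM1 of 5.00 on control and 4.68 on inhibitor arrays. TEK had 4.47 and 4.51 and passed detection on 1 control and 2 inhibitor arrays. On the same scale COL4A1 had 12.8 on control and 12.5 on inhibitor arrays. Any part of the marker difference in the values of the collagen IV chains, which endothelial cells also make, was not tested. Control replicate 2 and inhibitor replicate 3 were known from earlier results to stand apart from their groups, and differences without both are given for the members below.

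With limma, 0 of the 21928 kept probes passed a Benjamini-Hochberg adjusted p of 0.05, or 0% of those tested, and so no member did. Before adjustment, 2199 probes (10.0% of those tested) lay under 0.05, split into 1060 with a positive difference (4.83%) and 1139 with a negative one (5.19%). All differences below are log2 values of the inhibitor group minus the control group.

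COL4A1 and COL4A2 were lower on the inhibitor arrays. COL4A2 (ILMN_1724994), the chain that completes the common trimer, had log2 values of 10.07, 10.08 and 9.78 on control replicates 1, 2 and 3 and of 9.38, 9.41 and 9.64 on inhibitor replicates 1, 2 and 3. All inhibitor values lay below all control values, with the gap between control replicate 3 and inhibitor replicate 3 the narrow one. The group means were 9.98 ± 0.17 and 9.47 ± 0.14 (SD, n = 3), and the difference was −0.50 ± 0.11 (SE), a 1.42-fold lower level. In bulk RNA, fewer cells that express a gene and less of its RNA per cell cannot be told apart.

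For COL4A1 (ILMN_1653028), the partner chain, the control arrays had log2 values of 12.89, 12.94 and 12.70 and the inhibitor arrays 12.36, 12.52 and 12.64. The groups again did not overlap in these normalized values, and inhibitor replicate 3 again came closest to the controls. Raw signals, before normalization, did overlap for both genes. They were 6526.2 to 7714.1 on control and 5673.6 to 6883.5 on inhibitor arrays for COL4A1. For COL4A2 they were 874.8 to 1088.6 on control and 697.5 to 909.1 on inhibitor arrays. Means were 12.84 ± 0.12 and 12.51 ± 0.14 (SD, n = 3), a difference of −0.34 ± 0.10 (SE), or 1.26-fold lower. When control replicate 2 and inhibitor replicate 3 were both dropped, the differences were −0.36 for COL4A1 and −0.54 for COL4A2. Leaving out 1 array at a time gave −0.41 to −0.26 for COL4A1 and −0.60 to −0.45 for COL4A2.

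The COL4A2 probe had the larger difference of the 2. Relative to its mean over the controls, the log2 ratio of the COL4A2 probe to the COL4A1 probe was 0.05, 0.01 and −0.06 on the control arrays and −0.12, −0.24 and −0.14 on the inhibitor arrays. Every inhibitor array thus had a lower ratio of these probes than every control array, with a mean difference of −0.17. From the intensities the authors had normalized, the differences of the single probes were −0.48 for COL4A2 and −0.37 for COL4A1. The lower COL4A2 was known when the genes were chosen, so the ratio is given as a description. How many other pairs of probes separate in this way was not examined.

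**Figure D1:**
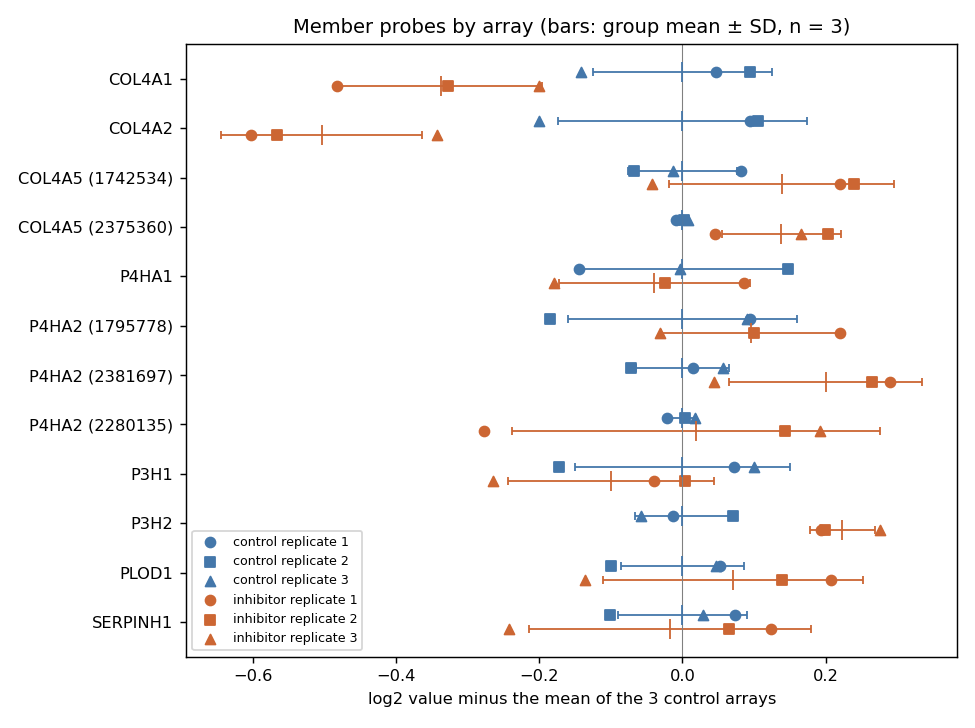
Log2 value of each kept member probe on each array minus the mean of the 3 control arrays (x axis), by probe (y axis; the number in brackets is the probe where a gene has several). Blue marks control and orange inhibitor arrays, shapes mark replicate numbers, and bars give the group mean ± SD (n = 3). COL4A1 and COL4A2 lie left of their controls on every inhibitor array, at mean differences of −0.34 and −0.50, and P3H2 lies right at 0.22.

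COL4A5, a chain of specialised epithelial basement membranes, had a positive difference on both of its probes, 1 of them close to background. The brighter one (ILMN_1742534) had log2 values of 6.50, 6.35 and 6.41 in the controls and 6.64, 6.66 and 6.38 with the inhibitor. Inhibitor replicates 1 and 2 were above all controls, whereas inhibitor replicate 3 fell among them. The difference was 0.14 ± 0.09 (SE). It was 0.19 with control replicate 2 and inhibitor replicate 3 dropped.

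The second COL4A5 probe (ILMN_2375360) sat close to background and passed detection on 2 of 3 control and 3 of 3 inhibitor arrays. Its values were 4.58, 4.59 and 4.59 against 4.63, 4.79 and 4.75, without overlap, a difference of 0.14 ± 0.08 (SE). The raw signals did overlap, at 50.5 to 52.9 on control and 50.6 to 52.5 on inhibitor arrays. The separation was thus not seen in the raw signals, which are not adjusted for differences between arrays. The deposited detection scores did separate, at 0.9492 to 0.9615 on control and 0.9715 to 1.0 on inhibitor arrays. The size of the difference depended on the background handling, with 0.055 without background correction and 0.05 from the intensities the authors had normalized. Relative to its control mean, the log2 ratio of COL4A5 (ILMN_1742534) to COL4A1 was 0.70, 0.57 and 0.16 on inhibitor replicates 1, 2 and 3 and between −0.16 and 0.13 on the control arrays.

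COL4A6 was not measurable. Its 3 probes had raw signals of 34.5 to 45.2 with detection scores of at most 0.62, and none was detected on any array. No fold is given for it.

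The alpha subunits of prolyl 4-hydroxylase, which carry the catalytic site and pair with P4HB, are encoded among the members by P4HA1 and P4HA2. P4HA1 (ILMN_1693334) had log2 values of 7.87, 8.16 and 8.01 in the controls and 8.10, 7.99 and 7.84 with the inhibitor. The groups overlapped almost entirely, and the difference of −0.04 ± 0.10 (SE) changed sign, taken relative to the median of all probes, under 4 of 17 alternatives. Its other probe (ILMN_1747442) was not detected on any array.

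P4HA2 was measured by 3 probes. The probe ILMN_2381697 read 8.44, 8.35 and 8.48 in the controls and 8.71, 8.69 and 8.47 with the inhibitor, a difference of 0.20 ± 0.09 (SE), or 1.15-fold. Here inhibitor replicates 1 and 2 exceeded all controls and inhibitor replicate 3 lay just under control replicate 3.

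ILMN_1795778 of P4HA2 read 8.91, 8.63 and 8.91 against 9.04, 8.92 and 8.79, a smaller difference of 0.10 ± 0.10 (SE), with overlap, and of 0.00 without control replicate 2. ILMN_2280135, near background, read 4.88, 4.90 and 4.92 against 4.62, 5.04 and 5.09, a difference of 0.02 ± 0.12 (SE). On this dim probe inhibitor replicate 1 was the lowest array, where on the other P4HA2 probes it was the highest.

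The prolyl 3-hydroxylases parted. P3H2 (ILMN_1657373), which modifies collagen IV in particular, had log2 values of 10.14, 10.23 and 10.10 on the control arrays and 10.35, 10.36 and 10.43 with the inhibitor. All inhibitor arrays exceeded all controls, and the arrays of each group lay close together, at 10.16 ± 0.07 and 10.38 ± 0.05 (SD, n = 3). The difference was 0.22 ± 0.08 (SE), or 1.17-fold higher.

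Of the 12 kept member probes, that of P3H2 had the lowest spread within groups, with a pooled SD of 0.06 against a median of 0.11 over all kept probes. Its difference ranged from 0.19 to 0.26 when single arrays were dropped. Dropping control replicate 2 and inhibitor replicate 3 together gave 0.23.

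P3H1 (ILMN_1664294), which acts in a complex with CRTAP and PPIB, had values of 8.56, 8.31 and 8.59 against 8.45, 8.49 and 8.22. The groups overlapped, and the difference was −0.10 ± 0.10 (SE). Relative to the control mean, the log2 ratio of P3H2 to P3H1 was −0.09, 0.24 and −0.16 on the control arrays and 0.23, 0.20 and 0.54 on the inhibitor arrays. Control replicate 2 therefore lay among the inhibitor arrays on this ratio.

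PLOD1 (ILMN_1684391), a lysyl hydroxylase of helical lysines, had log2 values of 12.67, 12.52 and 12.66 in the controls and 12.83, 12.76 and 12.48 with the inhibitor, a difference of 0.07 ± 0.10 (SE). Inhibitor replicates 1 and 2 were above all controls and inhibitor replicate 3 below all of them. Without inhibitor replicate 3 the difference was 0.18, and without inhibitor replicate 1 it was 0.00.

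SERPINH1 (ILMN_1751028), the collagen chaperone, had values of 9.74, 9.56 and 9.69 against 9.79, 9.73 and 9.42, with a difference of −0.02 ± 0.10 (SE). The order of the arrays was nearly that of PLOD1. The sign of this difference turned under 5 of 17 alternatives, also relative to the median of all probes, and was 0.10 without inhibitor replicate 3.

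**Figure D2:**
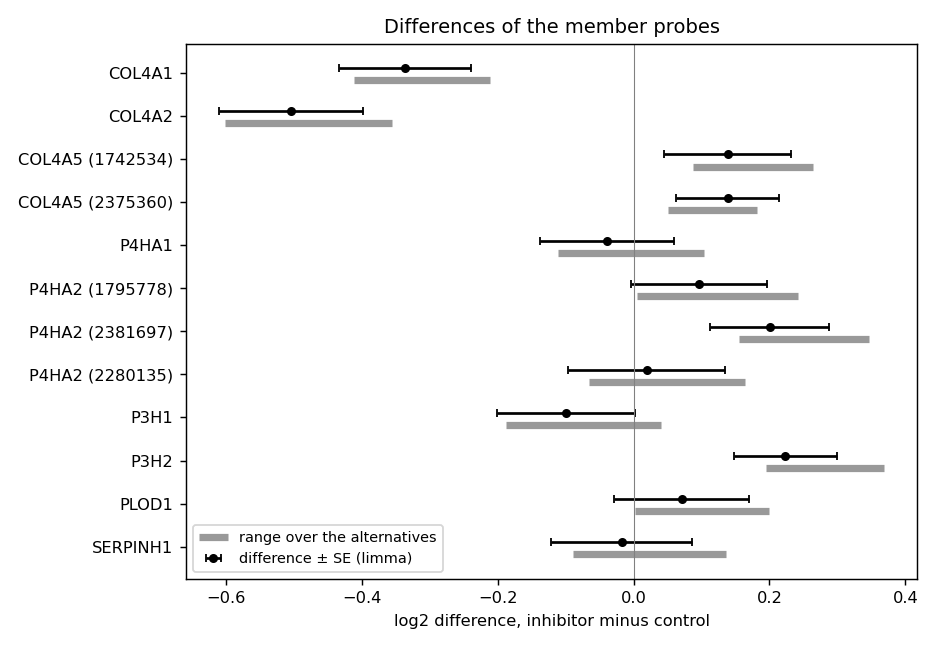
Log2 difference between inhibitor and control (x axis) for each kept member probe (y axis). Black points with bars are the limma difference ± SE over 3 and 3 arrays, and grey bars span the lowest and highest value over the alternative settings. The grey bars of COL4A1 and COL4A2 stay below 0 and that of P3H2 above 0, while those of P4HA1, SERPINH1 and the dim P4HA2 probe cross it. The bar of P3H1 crosses 0 through median centring, which moved the median of all probes to 0.10.

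Over the 12 kept member probes, 7 were higher and 5 lower, with a median difference of 0.04 against 0.01 over all kept probes. The inhibitor and control values did not overlap in 2 probes in the direction of lower expression, COL4A1 and COL4A2, where 7.12% of all kept probes did the same (15.5% in either direction). In the direction of higher expression there were 2 such probes, of P3H2 and the dim one of COL4A5 (ILMN_2375360), against 8.40% of all kept probes. Since earlier results of this contrast entered the choice of the genes, nothing is read from these counts. Dropping control replicate 2 and inhibitor replicate 3 raised the members without overlap to 3 lower and 6 higher, against 23.1% and 25.3% of all kept probes. With 2 arrays a group, separation is common.

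The genes were not chosen by how they varied among replicate cultures. The 2 arrays compared next were, however, known from earlier results of these data to stand apart. Several of the member probes also vary together, so the counts are a description only. On 6 of the 12 probes, control replicate 2 was the lowest control array and inhibitor replicate 3 the lowest inhibitor array, against 19.3% of all kept probes. These were PLOD1, SERPINH1, P3H1, 2 probes of P4HA2 (ILMN_1795778 and ILMN_2381697) and COL4A5 (ILMN_1742534). On 3 others, COL4A1, COL4A2 and P3H2, the same arrays were both the highest, against 18.9% of all kept probes. P4HA1 and the dim probes of COL4A5 and P4HA2 did neither.

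PLOD1 and SERPINH1 varied in close parallel, the closest of the 66 pairs of kept member probes. Deviations from the group mean on control replicates 1, 2 and 3 and inhibitor replicates 1, 2 and 3 were 0.05, −0.10, 0.05, 0.14, 0.07 and −0.21 for PLOD1. For SERPINH1 they were 0.07, −0.10, 0.03, 0.14, 0.08 and −0.22. Of the other kept probes, 36 (0.164%) followed PLOD1 at least as closely over these deviations. This share does not allow for the choice of the closest of 66 pairs, so nothing is read from it. Close parallels were common, since 25.5% of kept probes had an absolute r above 0.8 with PLOD1 over the 6 arrays.

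COL4A1 and COL4A2 also shared their order within the groups, with deviations of 0.05, 0.09, −0.14, −0.15, 0.01 and 0.14 for COL4A1 and of 0.10, 0.11, −0.20, −0.10, −0.06 and 0.16 for COL4A2. Here 377 other kept probes (1.72%) followed COL4A1 at least as closely as COL4A2 did. Array-wide differences are common to all these probes, and the cause of the shared deviations was not tested.

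Each value averages 20 to 60 beads, and the bead SE was 1.74% to 5.31% of the signal of the kept member probes. The pooled SD within groups was 0.13 for COL4A1, 0.16 for COL4A2 and 0.15 for SERPINH1 on the log2 scale. These spreads exceeded those of 67.8%, 80.4% and 78.4% of all kept probes.

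**Figure D3:**
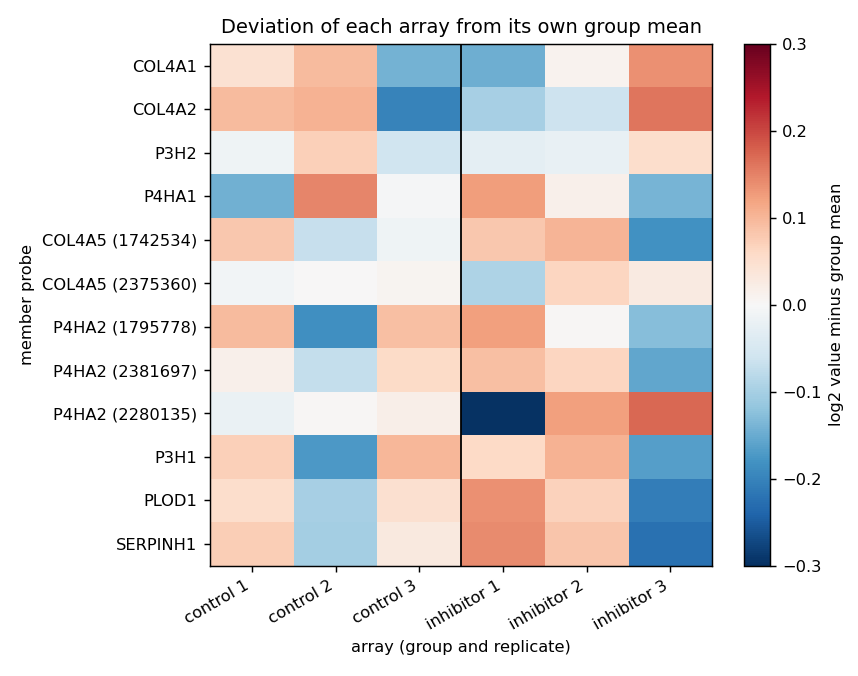
Log2 value of each kept member probe minus the mean of its own group, by array (x axis) and probe (y axis), with red above and blue below the group mean. Control replicate 2 and inhibitor replicate 3 are red for COL4A1, COL4A2 and P3H2 and blue for PLOD1, SERPINH1, P3H1 and the brighter probes of P4HA2 and COL4A5.

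The probes whose pattern over the 6 arrays was most like that of COL4A2 by Pearson r were those of LAMA5, a laminin chain of basement membranes (0.995), DHCR7, an enzyme of cholesterol synthesis (0.993), SLC27A3 (0.992), PROM2 (0.991) and APP (0.990). Their log2 differences were −0.14, −0.20, −0.21, −0.36 and −0.13. Most like COL4A1 were IPO5, a nuclear import receptor, BIN1, RAB12, LYRM4 and MFAP1, at 0.993 to 0.999. COL4A2 was itself at 0.978 with COL4A1, and 33 other probes were nearer to COL4A1. Among 16300 probes compared, 116 were above 0.95 for COL4A2 and 174 for COL4A1. With 6 arrays such likeness is a description of these arrays.

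Partners that fold and modify collagen with the members differed little. Of 15 listed genes 10 were measured, with 5 higher and 5 lower and a median gene difference of 0.00. None of their 13 probes passed at an adjusted p of 0.05, and none at an unadjusted p under 0.05, where 10.0% of all kept probes did. The lysyl hydroxylase PLOD3, which also glycosylates collagen, had 0.09 ± 0.08 (SE, limma adjusted p 0.698). PLOD2, the hydroxylase of telopeptide lysines, had −0.11 ± 0.11 (adjusted p 0.725). P3H4, a scaffold of a lysyl hydroxylase complex, had 0.06 ± 0.08 (adjusted p 0.828), and MIA2, an export factor, had −0.15 ± 0.13 on its brighter probe and 0.07 on the other.

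Of 22 other collagen chains 13 were measured, 6 higher and 7 lower, with a median gene difference of −0.04. None of their 15 probes passed the adjusted threshold and 1 was under an unadjusted p of 0.05, where 10.0% of all kept probes were. That probe belongs to COL18A1, the basement membrane collagen from which endostatin is cut. Its log2 values were 6.06, 6.56 and 6.28 in the controls and 5.22, 5.47 and 6.05 with the inhibitor (ILMN_1701937), a difference of −0.72 ± 0.19 (SE, limma adjusted p 0.44). The size of this difference depended on the background handling, with −0.42 without background correction, −0.46 with an offset of 50 and −0.38 from the intensities the authors had normalized. The brighter COL18A1 probe, which stands for the gene, had −0.13 ± 0.09 (adjusted p 0.628) with overlapping groups. COL4A4, a partner of COL4A5, had 6.41, 6.43 and 6.38 against 6.33, 6.28 and 6.21 (ILMN_1778308), a difference of −0.13 ± 0.07 (adjusted p 0.568). From the intensities the authors had normalized it was −0.08. COL12A1, a fibril-associated collagen, had 0.16 on its brighter probe and −0.18 on a probe near background, and COL13A1, a transmembrane collagen, had −0.12.

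Genes of extracellular assembly and crosslinking were mostly at background, with 5 of 13 measured, 3 higher and 2 lower, and a median of 0.03. LOXL3, a lysyl oxidase, had 0.15 ± 0.09 (SE, adjusted p 0.59) and NID2, a nidogen that links laminin to collagen IV, had 0.03 ± 0.07 (adjusted p 0.903). PCOLCE and PCOLCE2, enhancers of procollagen processing, had 0.08 and −0.08. None of the 5 probes was under an unadjusted p of 0.05.

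Of 10 genes of collagen turnover and collagen receptors 6 were measured, 2 higher and 4 lower, with a median of −0.08. None of their 9 probes passed the adjusted threshold and 1 was under an unadjusted p of 0.05, that of CTSK, a share near the 10.0% of all kept probes. This collagen-cleaving cathepsin had log2 values of 6.50, 6.62 and 6.53 against 6.24, 6.38 and 6.35, without overlap, and a difference of −0.23 ± 0.08 (SE, adjusted p 0.45). Its size was −0.15 without background correction, −0.14 from the intensities the authors had normalized and −0.21 relative to the median of all probes with median centring. The gelatinase MMP2, which cleaves collagen IV, had −0.14 ± 0.08 (adjusted p 0.56). For this probe near background it was −0.07 without background correction and −0.06 from the intensities the authors had normalized. The collagen receptor DDR1 had −0.14 ± 0.08 on its brightest probe (adjusted p 0.557), and −0.24 and 0.02 on the others. TIMP2, an inhibitor of metalloproteinases, had 0.07 ± 0.09 (adjusted p 0.81).

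**Figure D4:**
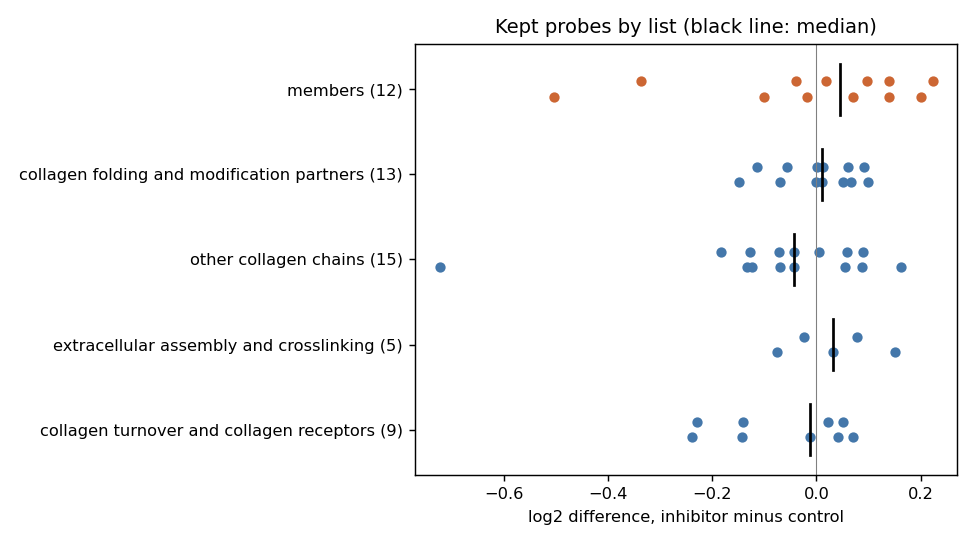
Log2 difference between inhibitor and control (x axis) for the kept probes of the members and of 4 lists of related genes (y axis, number of kept probes in brackets), with black lines at the medians. COL4A2 and COL4A1 are the lowest members at −0.50 and −0.34, and the dim COL18A1 probe lies at −0.72 here and at −0.42 without background correction.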

How the data were processed

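Per the file headers, the authors deposited for each array the mean bead signal of each probe, an intensity on a linear scale, with its bead SD, the number of beads and a detection score, a fraction from 0 to 1 taken as 1 minus a p-value. BeadStudio is the software named per the submitters' processing notes, without a version. A deposited series table held an intensity mapped onto the distribution of control replicate 1; the sources used here do not give the method. The tables were joined by each probe's rank on all 6 arrays, unique for all 48803 probes. Of the probes, 28098 had 1 symbol.

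Signals were processed with limma's neqc (limma 3.58.1, R 4.3.3; offset 16, quantile normalization, log2), filtered on detection, and tested per probe with lmFit and eBayes, two-sided, with Benjamini-Hochberg adjustment over 21928 probes and no replicate block. For list genes with several kept probes, the brightest stood for the gene; up to 4 genes per list with the lowest p were named, and the 5 probes most like COL4A1 and COL4A2. A summed marker level is the sum of linear normalized values. Members and lists were chosen with earlier results of these data known. No protein sequences were at hand, so planned protein features were not computed. On simulated data with 21928 probes, 12% of probes changed 1.25-fold were recovered, 62% at 1.5-fold, 94% at 2-fold and 100% at 4-fold. The simulated noise was independent between probes and arrays, at the observed means and pooled SDs. The real arrays share deviations over many probes, so these shares need not hold for them. Arrays have no read depth, and their number limits the precision.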

Additional observations from a re-analysis of the deposited data

How the results depend on the processing

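Taken relative to the median of all probes in each setting, 8 of 12 kept member probes had 1 sign throughout, COL4A1, COL4A2, P3H2 and P3H1 among them. The exceptions were P4HA1, SERPINH1, the dim P4HA2 probe, and PLOD1 without inhibitor replicate 1. Alternatives that changed only the detection filter, the variance model or the replicate block left the difference of each probe they kept unchanged by construction. Probes past the adjusted threshold stayed at 0 with limma under all 17 alternatives, as did those of the collagen pathway lists. The count of probes under an unadjusted p of 0.05 was 2199, against 4347 with median centring (4099 higher and 248 lower), 4105 without a detection filter, 3576 with array weights, 3421 without both control replicate 2 and inhibitor replicate 3, and 1304 to 4259 with 1 array left out, the extremes without inhibitor replicate 1 and without inhibitor replicate 3, and 1427 without inhibitor replicate 2. The median of the members was 0.04, against 0.15 with median centring and −0.0023 to 0.11 with 1 array left out (inhibitor replicates 2 and 3). Median centring moved the median of all probes to 0.10. Relative to it COL4A1 was at −0.31, COL4A2 at −0.46 and P3H2 at 0.27. Member probes without overlap were 4, and 9 without control replicate 2 and inhibitor replicate 3, a count added after seeing the data. Arrays with the same number did not deviate together, with correlations over probes of 0.089, −0.258 and −0.213. With 3 arrays a group, these values cannot show whether cultures with the same number were paired. A fit with the replicate block left 0 probes past the adjusted and 1714 under the unadjusted threshold. Signal over background limits COL4A6 and the dim probes of COL4A5, P4HA1 and P4HA2. The causes were not tested.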
